A study of Caenorhabditis elegans with 66 samples.

Results

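These results describe 100 piRNAs of Caenorhabditis elegans that were both abundant and steady between larva and adult in wild type, out of 17114 piRNAs in the deposited count table. They were chosen from readout values: counts were scaled to the total piRNA count of their library (CPM, the usual counts per 1000000), and the mean CPM was taken over 6 wild-type libraries at 48 h and 6 at 72 h. A piRNA was kept when its 72 h to 48 h ratio lay between 0.8 and the inverse of 0.8, 5 named piRNAs were left out by the rule, and the 100 with the highest mean over both ages are the members. Steadiness and abundance in those 12 libraries are therefore a description, and neither was tested. Small RNA came from whole animals at 48 h (L4 larvae) and at 72 h (gravid adults). The genotypes were wild type (N2), snpc-1.2(-), snpc-1.3(-), the mutant lacking both snpc-1.2 and snpc-1.3, prg-1(-), mut-16(-) and hrde-1(-), and the labels name no alleles. The libraries fall into 3 sets. The single snpc mutants and their own wild type form set A. The double mutant, prg-1, mut-16 and hrde-1 share a second wild type in set B, and of set C the wild type alone was used. Each group of 1 set, genotype and age has 3 libraries. The labels do not say that these are separate cultures, so p-values measure only the spread between libraries, which may be technical. In whole animals, fewer germ cells and less piRNA per germ cell cannot be told apart. The mutated genes themselves were not measured in the piRNA tables.

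piRNAs of C. elegans, also called 21U-RNAs, are germline small RNAs that usually begin with uridine and guide the Argonaute PRG-1 to foreign and self transcripts. Most are transcribed one by one, each from its own small promoter with an upstream Ruby motif, in large clusters on chromosome IV. SNPC-1.2 and SNPC-1.3 are related proteins of the SNAPC type, a family that helps to start transcription of short non-coding RNA genes, and SNPC-1.3 is known for the expression of male piRNAs. A hermaphrodite makes sperm as an L4 larva and oocytes as an adult, so the 48 h and 72 h animals sample different germlines. mut-16 is needed to build the foci where secondary 22G-RNAs are amplified downstream of piRNAs, and hrde-1 encodes a nuclear Argonaute that binds such 22G-RNAs.

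The 6 most abundant members are printed below, since they carry the largest counts, followed by members whose level differed in a mutant. The sequences are those of the deposited table, written as DNA from 5′ to 3′ on the strand of the piRNA, and the capital marks the first base. The first 6 lie on chromosome IV of WBcel235.
21ur-4730: Tccttcggctatatttacaat
21ur-4861: Tcacatcttcacttttagagc
21ur-3775: Tgacaacggctttgtgagaaa
21ur-1294: Tctgactaagttctgtgagtc
21ur-4976: Tagcgattgcagagtaagatt
21ur-6031: Tttgatgtgagtatagaaagt
Of these, 21ur-4730 is at chrIV:15612149-15612169 (plus strand), 21ur-4861 at chrIV:14127030-14127050 (minus) and 21ur-3775 at chrIV:14180736-14180756 (plus), none of them inside an annotated gene. 21ur-1294 at chrIV:17066822-17066842 (minus) and 21ur-6031 at chrIV:16556699-16556719 (minus) also lie between genes. 21ur-4976, at chrIV:17149507-17149527 (plus), lies outside the exons of the protein-coding gene Y116A8C.40 on the opposite strand.

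The next set holds 4 members described below for their changes in the snpc mutants and 1 that was higher in hrde-1.
21ur-4362: Taaaataggacagttaaattt
21ur-4684: Taaaatagctgtagaaaagtt
21ur-4985: Tggacgacctggagtaataga
21ur-5541: Tgctcgtctaatttggtaaga
21ur-1719: Tacttttgtcgtgaaaatatg
21ur-4362 is at chrIV:15891101-15891121 (plus) between genes, and 21ur-4684 is at chrIV:17205944-17205964 (plus), outside the exons of cnnm-1 on the opposite strand. 21ur-4985 is at chrIV:15918894-15918914 (plus), inside a pseudogene of the opposite strand and outside its exons. 21ur-5541 is at chrIV:6433919-6433939 (plus) between genes. 21ur-1719 is at chrIV:13900974-13900994 (plus), outside the exons of Y37A1A.3 on the opposite strand.

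The members include 5 pairs of names whose loci overlap by 20 of 21 bases on the same strand, so the 100 names stand for 95 loci. Both names of 2 such pairs are shown because their sequences differ by a shift of 1 base.
21ur-245: Cacgaactgaaactacatttt
novel_21ur-1398: Tcacgaactgaaactacattt
21ur-3024: Gtaaacatctcacatctggtc
novel_21ur-1365: Taaacatctcacatctggtcg
21ur-245 (chrIV:16699591-16699611, minus) and novel_21ur-1398 (chrIV:16699592-16699612, minus) lie between genes. 21ur-3024 (chrIV:16669629-16669649, plus) and novel_21ur-1365 (chrIV:16669630-16669650, plus) lie outside the exons of sta-1 on its own strand. The counts of the 2 names of a pair differed by at most 74 in any library, so each pair is 1 signal under 2 names. Of the 100 members, 38 (2 of them in the pairs) overlap the locus of a piRNA that is no member, on the same strand, and that neighbour held a median of 1.70% and at most 43.4% of the member's counts.

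Most members come from the chromosome IV clusters and begin with T. Of the 100 members, 98 lie on chromosome IV, against 92.0% of the 13211 piRNAs with a position. The region from 13 to 18 Mb of chromosome IV holds 86 members, against 72.8% of all piRNAs, and the region from 4 to 7 Mb holds 12, against 17.1%. The first base is T (U in the RNA) in 96 members and in 97.7% of all. The others are 21ur-245 with C, 21ur-10492 and 21ur-3024 with G, and 21ur-2037 with A. In 21ur-245 and 21ur-3024 the partner in the pair begins with T. The median GC content is 33.3% in the members and in all. Annotation places 59 members outside genes, 37 in a gene outside its exons and 4 in an exon. The 94 annotated members have the coordinates of WBcel235, and the other 6 have names that begin with novel_21ur.

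The 2 members on chromosome II had the largest increases of all members in the double mutant and in prg-1, and their sequences are given for that reason.
21ur-10492: Gagtttttctcgtcgatcgaa
novel_21ur-0227: Tttttctctttttcttcctgt
21ur-10492 is at chrII:13247294-13247314 (minus), in an exon of the protein-coding gene F15D4.5 that runs on the opposite strand. novel_21ur-0227 is at chrII:2034602-2034622 (minus), outside annotated genes.

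In the wild-type libraries that chose them, the members ranged from 170 to 5885 CPM with a median of 414, and 14 were above 1000 CPM. The 10 most abundant held 34.7% of the members' counts. 21ur-4730, the highest, gave 6442, 5633 and 6896 CPM in the 48 h libraries of set A and 5115, 4872 and 4918 CPM at 72 h. In set B it gave 6415, 5649.95 and 7669 CPM at 48 h and 5019, 5728 and 6260 CPM at 72 h. The 48 h and 72 h values of 21ur-4730 do not overlap in set A and overlap in set B. The coefficient of variation over the 12 libraries ran from 7.41% (21ur-3215) to 33.2% (21ur-3729), with a median of 16.5%. Taken one set at a time, the ratio stayed in that range for 80 members in set A and for 90 in set B, and for 70 in both.

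Steady piRNAs of this abundance were the exception. Of the 1255 piRNAs at or above the level of the last member, 102 had a ratio inside the range, 543 lay below it and 610 above it. At the limits of the rule, 21ur-1152 was the last member at 169.5 CPM and 21ur-4116 the first left out at 166.4 CPM. 21ur-3729 was a member at a ratio of 0.802, while 21ur-527 was not at 0.799. 21ur-313 was a member at 1.2498, while 21ur-1547 was not at 1.26. For comparison, 2 other lists of 100 abundant piRNAs were taken by the same rule, one with a ratio of at most 0.5 (called early here) and one with a ratio of at least 2 (called late here).

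Wild type of set C was not used to choose the members, and there both the age change and the level could be looked at afresh. Across age, 3 members were called higher and 1 lower at 72 h by edgeR's quasi-likelihood test (Benjamini-Hochberg adjusted p below 0.05 over 8512 piRNAs), where 43.5% of all piRNAs tested were called, 15.4% higher and 28.1% lower. In the same libraries 96 early piRNAs were called lower and 64 late ones higher. 21ur-2073, at chrIV:5806766-5806786 (plus), gave 67.5, 37.5 and 76.3 CPM at 48 h and 89.2, 113 and 807 CPM at 72 h. The 2 ages of 21ur-2073 do not overlap, and replicate 3 at 72 h is far above the other libraries. Its log2 change was 1.02 (SE 0.36, edgeR adjusted p = 0.0176). The other 3 calls, whose libraries overlap between ages, were 21ur-10492 at 3.43, 21ur-4861 at 0.55 and 21ur-4866 at -0.83, and these were named after their values were seen. Replicate 3 at 72 h holds 9912 piRNA counts, where the other set C libraries hold 318641 to 829820. Without it the change of 21ur-2073 was 0.71 (edgeR adjusted p = 0.0612). Without 48 h replicate 2 it was 0.78 (edgeR adjusted p = 0.0909) and 1 member was called. The count was 10 without 48 h replicate 1 and 7 without 72 h replicate 1 or replicate 2. The same replicate numbers of set C moved together. The calls above did not use this pairing, and with the replicate block 6 members were called.

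The ratio of mean CPM was inside the range of the rule for 43 members in set C, and for 64 when 72 h replicate 3 was left out. How many other piRNAs of like level lay inside that range in set C was not counted. The levels themselves differed between the sets. At 48 h, 53 members were within 2-fold of their mean in sets A and B, 16 were over 2-fold higher in set C and 31 over 2-fold lower. That is 47.0% of the members, against 51.7% of 1289 piRNAs of at least the same level. Between sets A and B no member passed 2-fold, and the ratios ran from 0.770 to 1.38. 21ur-6532 gave 3392, 5228 and 3972 CPM in set C against 400.5 to 622 CPM in the 6 libraries of sets A and B, a ratio of 8.56. 21ur-6923 gave 2.04 CPM on average against 227 CPM, a ratio of 0.00897. 21ur-4730 gave 2256, 474 and 1656 CPM, all below the lowest of sets A and B. Spearman's rho between the sets was 0.43 over the 100 members, which share their libraries. Why the levels of set C differ was not tested.

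**Figure D1:**
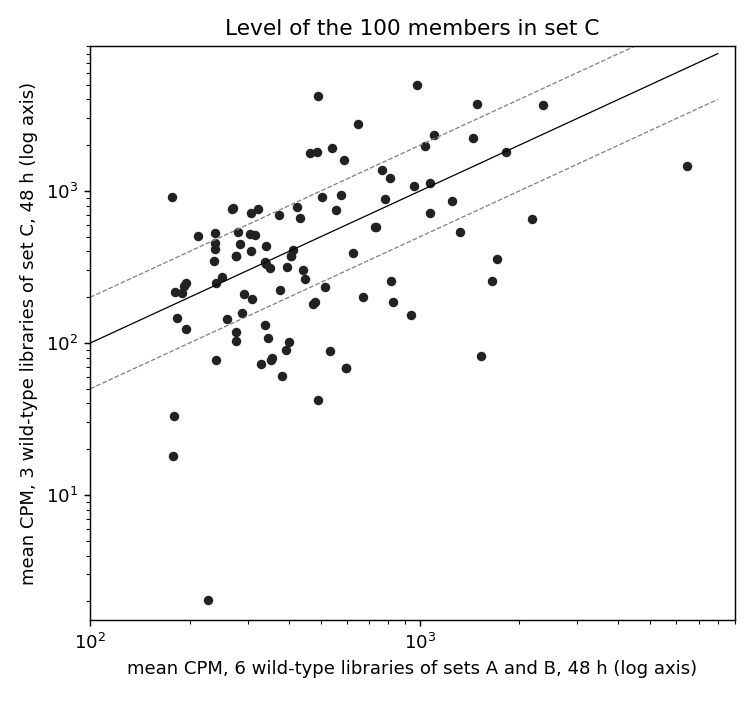
Mean CPM of each of the 100 members at 48 h in wild type, sets A and B (6 libraries) on the x axis and set C (3 libraries) on the y axis, both log axes. The solid line marks equal levels and the dashed lines 2-fold; 47 points lie outside the dashed lines, and the lowest point is 21ur-6923.

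Across genotypes, the members on chromosome IV in sets A and B kept a nearly constant share of the piRNA counts except in the double mutant and in prg-1. In wild type all 100 members held 6.26% ± 0.05 (SD, n = 3) of the counts at 48 h and 6.25% ± 0.03 at 72 h in set A, and 6.31% ± 0.09 and 6.29% ± 0.02 in set B. The share was 6.30% ± 0.15 at 48 h and 7.06% ± 0.11 at 72 h in snpc-1.2, and 6.84% ± 0.08 and 6.31% ± 0.05 in snpc-1.3. Without the 2 members on chromosome II the snpc-1.2 share at 72 h was 6.26% ± 0.12. In mut-16 the 100 members held 6.17% ± 0.12 and 6.36% ± 0.13, and in hrde-1 6.10% ± 0.10 and 6.23% ± 0.08. These shares sit beside large moves of the other lists. The early list went from 15.2% in wild type at 48 h to 2.15% in snpc-1.3, and the late list from 27.4% in wild type at 72 h to 2.22% in snpc-1.2.

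A share says nothing of the total, so the raw counts were compared as well, with the limit that the library read totals were not used here. In snpc-1.2 at 72 h the members on chromosome IV had 26.3% of the raw counts of wild type, where the early list had 169%, the late list 2.06% and all piRNAs 25.7%. In snpc-1.3 at 48 h the members had 75.0%, the early list 9.78% and the late list 205%. In the double mutant the members on chromosome IV had 3.43% at 48 h and 4.81% at 72 h, and in prg-1 0.234% and 0.222%. For the double mutant all piRNAs had 2.83% and 3.52%, the early list 0.963% and 6.01%, and the late list 1.43% and 0.791%. For prg-1 all piRNAs had 0.779% and 1.09%, the early list 0.12% and 0.639%, and the late list 0.453% and 0.165%. In mut-16 the 100 members had 134% and 240%, close to the 137% and 236% of all piRNAs.

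**Figure D2:**
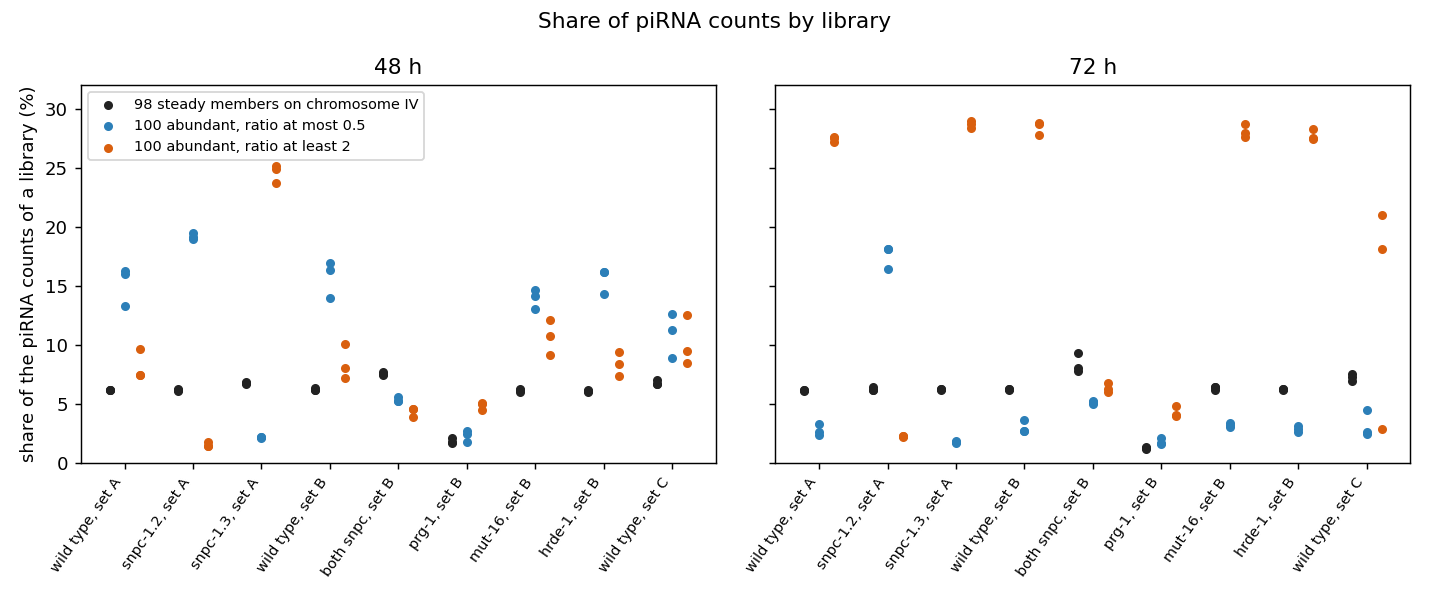
Share of the piRNA counts of each library (y axis, percent) held by the 98 members on chromosome IV, by the 100 early piRNAs (ratio at most 0.5) and by the 100 late piRNAs (ratio at least 2), by genotype and set, at 48 h and 72 h; each point is 1 library. The members' points stay between 5.98% and 6.80% in wild type of sets A and B, both single snpc mutants, mut-16 and hrde-1, while the coloured points move.

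In mut-16 and hrde-1, whose genes act downstream of piRNAs, 96 of the 100 members were called in none of 4 comparisons. The same count was not made over all piRNAs tested, of which each comparison called only 0.822% to 7.34%. In mut-16, 1 member was lower at 48 h (3.9% of all piRNAs tested were called, 0.352% higher and 3.55% lower) and at 72 h 1 was higher and 2 were lower (7.34% of all, 0.446% higher and 6.9% lower). In hrde-1, 1 was higher and 1 lower at each age (at 48 h 0.822% of all, 0.317% higher and 0.505% lower; for adults 1.33% of all, with 0.411% higher and 0.916% lower). The median log2 fold changes of the members were 0.02 and 0.06 in mut-16 and -0.04 and 0.03 in hrde-1, beside -0.01, 0.03, -0.01 and 0.02 over all piRNAs. Counts this small moved with single libraries. In mut-16 at 48 h the count was 0 without mutant replicate 1 or 2 and 2 without replicate 3, and at 72 h it was 0 without mutant replicate 1 and 1 without mutant replicate 2 or wild-type replicate 1. It was 2 at 72 h without wild-type replicate 2 or 3. In hrde-1 at 48 h it was 0 without mutant replicate 1 and 1 without mutant replicate 2 or 3 or wild-type replicate 1 or 3.

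The calls in these mutants were few and named. 21ur-1719 gave 491, 417 and 285 CPM in hrde-1 at 48 h against 168, 232 and 154 CPM in wild type of set B. It gave 472, 458 and 424 CPM in hrde-1 at 72 h against 214, 192 and 198 CPM. At both ages every hrde-1 library lies above every wild-type library. The log2 change of 21ur-1719 was 1.11 (SE 0.27, edgeR adjusted p = 0.0148) at 48 h and 1.17 (SE 0.27, adjusted p = 0.00683) at 72 h. The 48 h call was lost without hrde-1 replicate 1 (0.93, edgeR adjusted p = 0.239) or replicate 2 (1.08, 0.0693) and without wild-type replicate 1 (1.05, 0.115) or replicate 3 (0.99, 0.165). 21ur-4866, in anoh-2 outside its exons, gave 826, 716 and 772 CPM in mut-16 at 72 h against 404, 465.5 and 448 CPM in wild type. The libraries of 21ur-4866 do not overlap, and its change was 0.81 (SE 0.25, edgeR adjusted p = 0.0213). That call was lost without mut-16 replicate 1 (0.76, edgeR adjusted p = 0.109) and without any 1 of the 3 wild-type libraries (0.76, 0.86 and 0.83, with adjusted p from 0.0505 to 0.115).

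The other calls in mut-16 and hrde-1 fell on the 2 members of chromosome II. novel_21ur-0227 gave 6.70, 23.2 and 69.5 CPM in mut-16 at 48 h against 305, 288 and 278.5 CPM in wild type. At 72 h it gave 8.79, 21.6 and 104 CPM against 367, 323 and 253 CPM, again with no overlap. Its log2 change in mut-16 was -3.17 at 48 h (SE 0.84, edgeR adjusted p = 0.0212) and -2.90 at 72 h (SE 0.81, adjusted p = 0.0166). The 48 h call was lost without mut-16 replicate 1 (-2.63, edgeR adjusted p = 0.223) or 2 (-2.99, 0.115). The 72 h call was lost without mut-16 replicate 1 (-2.37, edgeR adjusted p = 0.155) or 2 (-2.55, 0.135) and without wild-type replicate 1 (-2.78, 0.0507). In hrde-1 21ur-10492 fell, by log2 changes of -4.28 at 48 h and -5.35 at 72 h (SE 0.89 and 0.97, edgeR adjusted p = 0.00708 and 0.00135), and the 48 h call was lost without hrde-1 replicate 1 (-3.99, 0.101) or 3 (-4.16, 0.074).

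**Figure D3:**
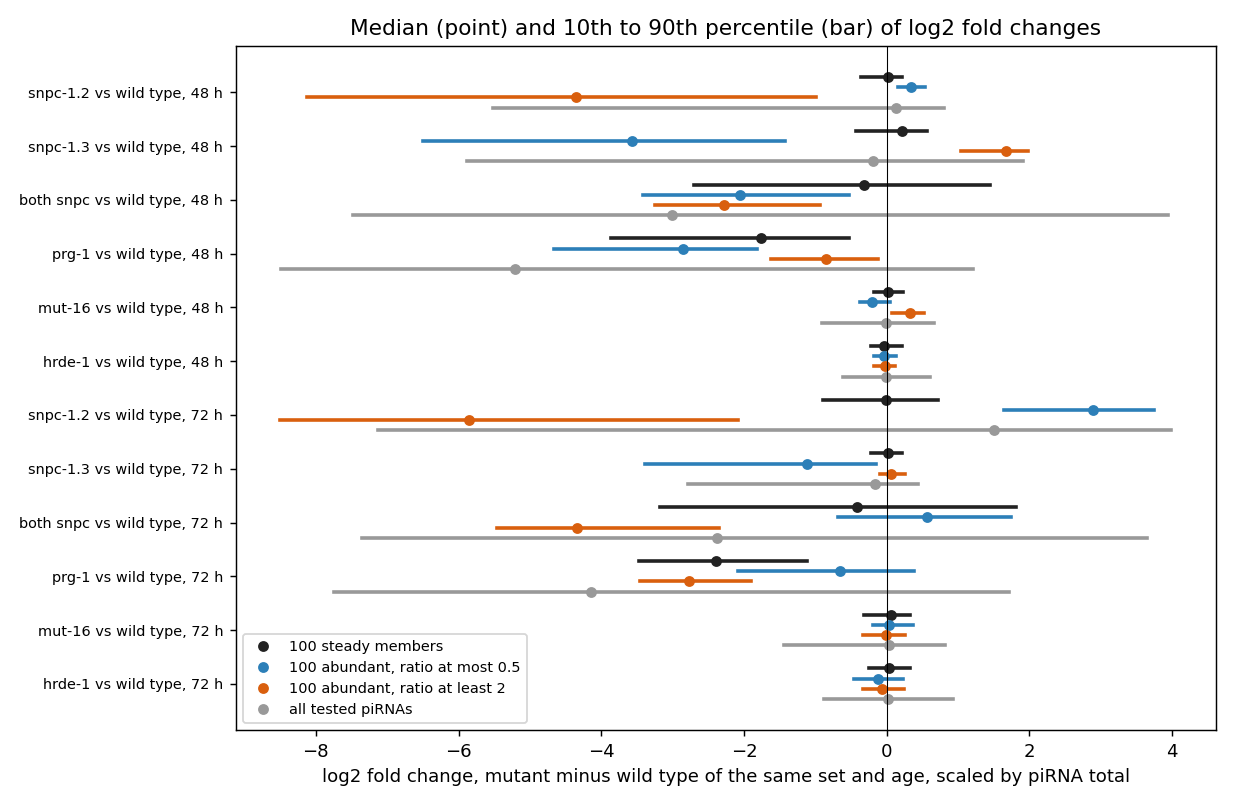
Log2 fold change (x axis) of each mutant against the wild type of the same set at that age, as median (point) and 10th to 90th percentile (bar), for the 100 members, the early list, the late list and all 8512 piRNAs tested. The members' median is -0.04 to 0.21 in all single mutants but prg-1, where it is -1.76 and -2.39.

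Relative to the piRNA total, most members were not called in any 1 comparison of a single snpc mutant with wild type. In snpc-1.2 at 48 h, 4 members were lower and 0 higher (of all piRNAs tested 29.2% were called, 3.1% higher and 26.1% lower), while 93 late piRNAs were lower. In snpc-1.3 at 48 h, 14 members were higher and 7 lower (73.2% of all, 30.8% higher and 42.4% lower), while 99 early piRNAs were lower and 97 late ones higher. In snpc-1.2 at 72 h, 13 members were higher and 21 lower (80.5% of all, 49.9% higher and 30.6% lower), while 99 early piRNAs were higher and 98 late ones lower. In snpc-1.3 at 72 h no member was called (0 calls by edgeR, 2 at an unadjusted p under 0.05, 0 by DESeq2, and 1 without wild-type replicate 2), where 11.5% of all piRNAs (0.0587% higher and 11.4% lower) and 59 early ones were. Over the 4 comparisons 59 members were never called, and the same count was not made over all piRNAs tested. The largest log2 change of a member on chromosome IV was 1.45 in size, that of 21ur-4633 in snpc-1.2 at 72 h, whereas the late list had a median of -5.85 there.

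These splits depend on the scaling, because CPM is relative to piRNAs that themselves moved. With TMM factors, which move the median of all piRNAs at 48 h by -0.97 in snpc-1.2 and 0.50 in snpc-1.3, and at 72 h by -1.93 in snpc-1.2, the counts of higher and lower members were 0 and 86, 55 and 0, and 1 and 98. Over all 8512 piRNAs tested the counts with TMM factors were 5 and 3703, 3288 and 3294, and 1962 and 3669. With equal library sizes 79 members were lower and 0 higher in snpc-1.2 at 72 h, and 1 was lower in snpc-1.3 at 48 h. Of all piRNAs tested, 3341 were lower and 1246 higher in the former, and 3567 lower and 377 higher in the latter. Relative to the median of all piRNAs, the members' median was -0.11 with piRNA totals and -0.14 with TMM in snpc-1.2 at 48 h. It was 0.40 and 0.42 in snpc-1.3 at that age, and -1.52 and -1.58 for snpc-1.2 adults. In snpc-1.3 at 48 h the count was 13 without wild-type replicate 1 of set A. In snpc-1.2 at 48 h it was 0 without wild-type replicate 2 or mutant replicate 3, and 2 without wild-type replicate 1.

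Within these limits, a few members moved in opposite directions in the 2 single mutants. 21ur-4362 gave 304, 406 and 292 CPM in snpc-1.3 at 48 h against 117, 222.5 and 178 CPM in wild type. In snpc-1.2 it gave 103, 115.5 and 83.7 CPM at 48 h, and 45.3, 75.3 and 83.6 CPM at 72 h against 142, 208 and 215 CPM in wild type. All snpc-1.3 libraries at 48 h lie above wild type and all snpc-1.2 libraries lie below it at both ages. The log2 change of 21ur-4362 was 0.95 (SE 0.25, edgeR adjusted p = 0.000549) in snpc-1.3 at 48 h and -1.43 (SE 0.33, adjusted p = 6.2e-05) in snpc-1.2 at 72 h. At 48 h in snpc-1.2 it was -0.77 (SE 0.26, edgeR adjusted p = 0.0175), and that call was lost without wild-type replicate 2 (-0.54, 0.168) or mutant replicate 3 (-0.66, 0.0965).

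21ur-4684 behaved like 21ur-4362. It gave 736, 799 and 631 CPM in snpc-1.3 at 48 h against 378, 595.5 and 411 CPM in wild type, with the wild-type replicate 2 well above the other libraries. In snpc-1.2 it gave 260.1, 357 and 211 CPM at 48 h, and 188, 166 and 159.9 CPM at 72 h against 396, 492 and 499 CPM in wild type. None of these comparisons overlaps. The log2 change of 21ur-4684 was -1.44 (SE 0.29, edgeR adjusted p = 5.6e-06) in snpc-1.2 at 72 h and -0.74 (SE 0.25, adjusted p = 0.0162) at 48 h. The 48 h call was lost without wild-type replicate 2 (-0.51, edgeR adjusted p = 0.17), mutant replicate 1 (-0.70, 0.0681) or mutant replicate 3 (-0.58, 0.127). The pair that completes the 4 names called in snpc-1.2 larvae is 21ur-245 and novel_21ur-1398, at -0.63 each.

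21ur-4985 went the other way. It gave 136.5, 99.0 and 103 CPM in snpc-1.3 at 48 h against 255, 157 and 254 CPM in wild type, and 239.5, 339 and 312.5 CPM in snpc-1.2 at 72 h against 165, 186 and 193 CPM. In CPM it was lower in all 3 snpc-1.3 libraries and higher in all 3 snpc-1.2 libraries. The log2 change of 21ur-4985 was -0.98 (SE 0.28, edgeR adjusted p = 0.00123) in snpc-1.3 and 0.71 (SE 0.29, adjusted p = 0.0223) in snpc-1.2. With TMM factors the change in snpc-1.3 was -0.46 (edgeR adjusted p = 0.173) and that in snpc-1.2 turned to -1.27 (adjusted p = 0.000497). With equal library sizes they were -1.50 and -1.24 (edgeR adjusted p = 0.0405 and 0.0834). 21ur-3863 was also lower in snpc-1.3 at 48 h, at -0.86 (SE 0.26, edgeR adjusted p = 0.00209), with 156.5, 154 and 179.5 CPM against 329, 281 and 279.5 CPM. 21ur-3452 was higher there at 0.84 (SE 0.27, edgeR adjusted p = 0.0042), with 507, 416.5 and 486 CPM against 278, 277 and 233 CPM.

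The comparison of snpc-1.3 at 48 h and that of snpc-1.2 at 72 h share no library, although both use wild-type libraries by which the members were chosen. Of the 14 members higher in snpc-1.3 at 48 h, 10 were lower in snpc-1.2 at 72 h, which is 71.4% of the former and 47.6% of the 21 latter. They are 21ur-2005, 21ur-313, 21ur-3452, 21ur-4362, 21ur-4633, 21ur-4684 and the names of 2 overlapping pairs, 21ur-245 with novel_21ur-1398 and 21ur-4173 with novel_21ur-1364. Of the 7 that fell in snpc-1.3 larvae, 4 rose in snpc-1.2 adults (57.1% of the former and 30.8% of the 13 latter), namely 21ur-2266, 21ur-2708, 21ur-4985 and 21ur-5594. None moved in the same direction in both (0 members). The same overlap was not counted over all piRNAs tested. As given above, most late piRNAs were higher in the first comparison and lower in the second, and most early ones the reverse. The directions of the members depend on the scaling. With TMM factors the 10 kept both calls, while the 4 were called lower, not higher, in snpc-1.2 adults (-1.27 to -1.25) and none of the 4 was called in snpc-1.3 (0 members). With DESeq2 size factors 3 of the 10 and none of the 4 kept both calls, and with equal library sizes none of the 14 did, the 4 standing at -1.28 to -1.24 in snpc-1.2 adults. Over the 98 members on chromosome IV the Pearson correlation of the 2 log2 changes was -0.54 and Spearman's rho -0.52, a description over members that share their libraries.

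**Figure D4:**
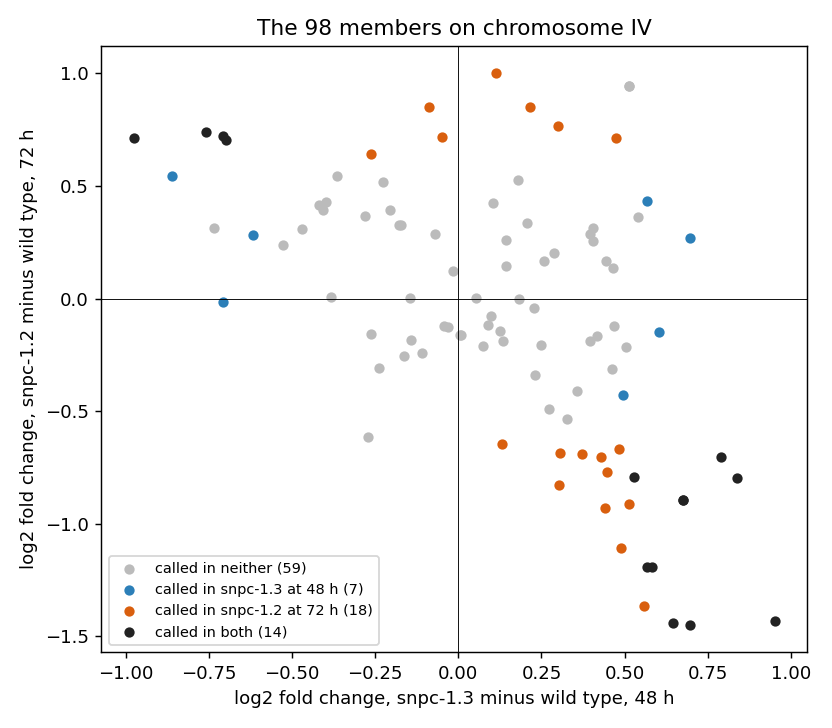
Log2 fold change of the 98 members on chromosome IV in snpc-1.3 at 48 h (x axis) and in snpc-1.2 at 72 h (y axis), each against wild type of set A; colours give where a member was called. The 14 members called in both lie in the upper left and the lower right of the plot.

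Set directly against each other, the single mutants differed at 30 members at 48 h, 9 higher and 21 lower in snpc-1.2 (79.2% of all piRNAs were called, 44.7% higher and 34.5% lower), and at 40 members at 72 h, 15 higher and 25 lower (83.1% of all, 52.1% higher and 31% lower). With TMM factors no member was higher, and 94 and 98 were lower. Of all 8512 piRNAs tested, 3007 and 2741 were then higher and 4108 and 3752 lower. With equal library sizes 2 and 84 members were lower, where 2755 and 3447 of all piRNAs tested were lower and 3497 and 2549 higher. None of these libraries chose the members. The 2 ages share no library, and 17 members were lower in snpc-1.2 at both, which is 81.0% of those at 48 h and 68.0% of those at 72 h. A further 5 were higher at both and none changed direction (0 members). How often all piRNAs tested kept their direction between the ages was not counted. 21ur-4362 showed the largest difference, at -1.72 (SE 0.27, edgeR adjusted p = 1.1e-08) at 48 h and -1.58 (SE 0.32, adjusted p = 9.4e-06) at 72 h. 21ur-4684 differed by -1.39 (SE 0.25, edgeR adjusted p = 7.4e-07) at 48 h, and 21ur-4633 by -1.53 (SE 0.29, adjusted p = 1.6e-06) at 72 h. 21ur-4985 differed by 1.16 (SE 0.28, edgeR adjusted p = 0.000121) at 48 h, a sign that turned with TMM factors (-0.36). 21ur-102 differed by 0.98 (SE 0.28, edgeR adjusted p = 0.000974) at 48 h and by -0.54 with TMM factors. In the same comparisons all 100 early piRNAs were higher in snpc-1.2 at both ages, and 97 and 98 late ones were lower.

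In the mutant lacking both snpc genes the members spread widely instead of moving together. At 48 h, 24 members were higher and 31 lower (32.8% of all piRNAs were called, 12.5% higher and 20.4% lower), and at 72 h 30 were higher and 34 lower (33.6% of all, 17.2% higher and 16.4% lower). The 2 ages share no library. Of the calls, 22 were higher at both ages and 26 lower at both, and none changed direction (0 members). This agreement between ages was not counted over all piRNAs tested. Of the early list 4 were higher and 84 lower at 48 h, and of the late list 3 and 88. The members' median log2 change was -0.31 at 48 h and -0.41 at 72 h, against -3.01 and -2.38 over all piRNAs. No floor was set for piRNAs without counts in these medians. With equal library sizes the members' median was -5.44 at 48 h and -5.23 at 72 h, against -6.14 and -4.48 over all. With TMM factors 6 members were higher and 71 lower at 48 h, and 5 and 79 at 72 h. Of all 8512 piRNAs tested, 901 were then higher and 4050 lower at 48 h, and 671 and 3377 at 72 h. With equal library sizes 98 and 96 members were lower and none higher. Of all piRNAs tested, 7372 and 6351 were then lower and 69 and 44 higher. The libraries of this mutant held 16101 to 34162 piRNA counts, and a member had a median of 26 counts over the 3 libraries at 48 h and 30 at 72 h. At 48 h, simulated 4-fold changes were recovered in 39.5% of cases at this depth, and in 95.5% in the comparison of snpc-1.3 with wild type. The simulation included piRNAs far less abundant than the members, with wild-type composition and a fixed spread, so these rates are not those of the members. How much of the difference from the single mutants goes with depth was not tested.

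21ur-4730, the most abundant member, gave 6151, 6459 and 6252 CPM in the double mutant at 48 h against 6415, 5649.95 and 7669 CPM in wild type. The groups overlap, and the log2 change of 21ur-4730 was -0.07 (SE 0.43, edgeR adjusted p = 0.901), while its raw counts were 2.69% of wild type. 21ur-4976 lay at the other end of the top 10, with 169.9, 186 and 355 CPM against 1721, 1729 and 1301 CPM at 48 h. At 72 h it gave 371, 234 and 367 CPM against 1602, 1793.4 and 2189 CPM, so that the groups are far apart at both ages. Its log2 change was -2.70 at 48 h and -2.55 at 72 h. 21ur-6031 gave 3976, 7949.8 and 4121 CPM at 48 h against 1293, 2197 and 1381 CPM, and 4326, 3747 and 4922 CPM at 72 h against 1525, 1387 and 2409 CPM. In CPM every double-mutant library of 21ur-6031 lies above every wild-type library, with log2 changes of 1.70 and 1.29. With equal library sizes no member was called higher at either age.

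In the double mutant, 21ur-4861, 21ur-6031 and 21ur-4649 among the 10 most abundant members were higher at both ages and 21ur-3775 at 72 h alone. These calls are relative to a piRNA total that was 2.83% of wild type at 48 h and 3.52% at 72 h. 21ur-1294, 21ur-4976, 21ur-5549 and 21ur-1291 were lower at both ages and 21ur-3320 at 72 h alone. Only 21ur-4730 among the 10 was called at neither age.

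Further down the list the spread was larger. 21ur-5541 gave 1427, 1366 and 1457 CPM in the double mutant at 48 h against 234.5, 240.4 and 232 CPM, and 1566, 2313 and 1726 CPM at 72 h against 276, 320.2 and 228 CPM. The libraries lie far apart, and the log2 change was 2.59 at 48 h (SE 0.29, edgeR adjusted p = 2.0e-12) and 2.77 at 72 h (SE 0.27, adjusted p = 1.2e-14). 21ur-5541 and the pair 21ur-3024 and novel_21ur-1365, higher by 3.32 and 3.57, had the largest increases on chromosome IV and were named after their values were seen. Even these had 17.1% and 24.2% (21ur-5541) and 29.1% and 42.2% (21ur-3024) of the wild-type raw counts.

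At the low end, 21ur-245 gave 34.0, 0 and 35.5 CPM in the double mutant at 48 h against 705.5, 796 and 654 CPM in wild type, far below it, a log2 change of -4.72 (SE 0.59, edgeR adjusted p = 1.6e-10). 21ur-4994 had no count in any of the 3 double-mutant libraries at 48 h (0 of 73675 counts) against 183, 194 and 183 CPM in wild type. Set at the floor of 3 counts over the group, it was at least 4.58-fold lower. At 72 h 21ur-6719 and 21ur-4362 had no count (0 of 85659 counts) and were at least 6.66-fold and 6.11-fold lower by the same floor, against 281, 198.5 and 220.2 CPM and 217, 219 and 206 CPM in wild type. These floors cover counting error only.

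The chromosome II members had the largest increases in this mutant. novel_21ur-0227 gave 6355, 6646 and 11013 CPM at 48 h against 305, 288 and 278.5 CPM in wild type, and 6469, 5679 and 3232 CPM at 72 h against 367, 323 and 253 CPM. Every mutant library is above every wild-type library, with a log2 change of 4.79 at 48 h (SE 0.84, edgeR adjusted p = 1.8e-05) and of 4.03 at 72 h (SE 0.82, adjusted p = 0.000123). In raw counts it stood at 79.8% and 57.5% of wild type, and with equal library sizes its change was -0.33 and -0.80. 21ur-10492 was higher by 5.94 and 5.33 (SE 0.88 and 0.86, edgeR adjusted p = 9.8e-07 and 3.2e-06), with 174% and 142% of the wild-type raw counts. Both were also higher in snpc-1.2 at 72 h, 21ur-10492 by 3.29 (SE 0.78, edgeR adjusted p = 0.000301) and novel_21ur-0227 by 1.92 (SE 0.75, adjusted p = 0.0203). There novel_21ur-0227 gave 1605, 1588 and 1286 CPM against 380, 474 and 328 CPM, all above wild type, and 91.8% of its raw counts. Its change in snpc-1.2 was -0.09 with TMM factors and -0.12 with equal library sizes, and the call was lost without wild-type replicate 3 (1.80, edgeR adjusted p = 0.0586). Against snpc-1.3 at 72 h both were higher in snpc-1.2, by 3.19 and 2.21 (SE 0.78 and 0.76, edgeR adjusted p = 0.000368 and 0.00835).

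**Figure D5:**
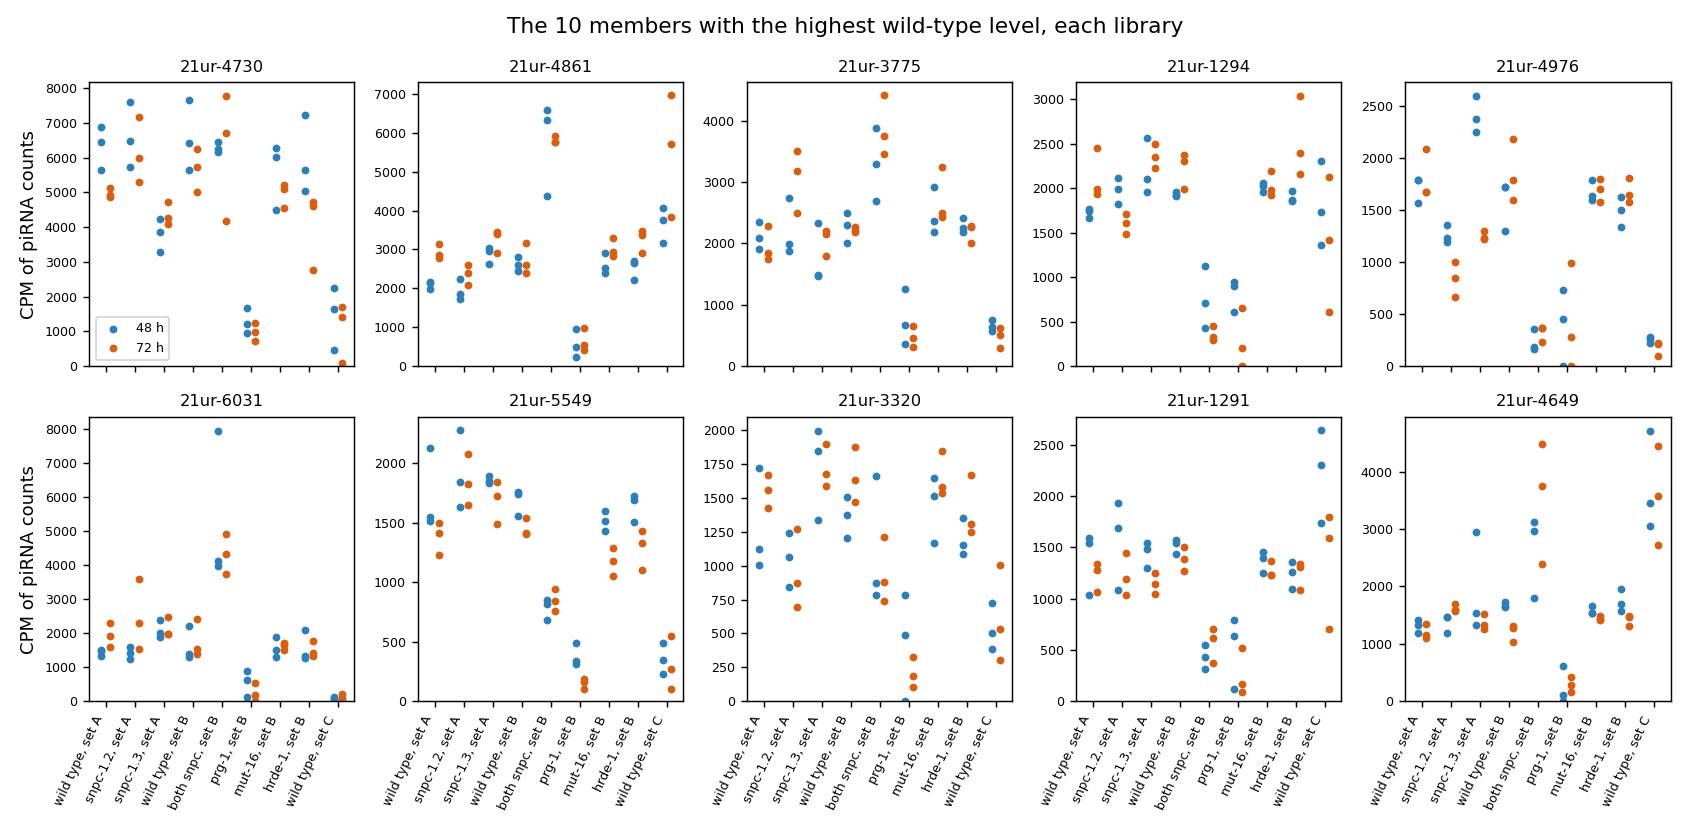
CPM (y axis, from 0, a scale for each panel) of the 10 most abundant members in every library, by genotype and set, 48 h and 72 h in different colours; each point is 1 library. The prg-1 points lie below those of wild type of set B in most panels; the double mutant is high for 21ur-4861, 21ur-3775, 21ur-6031 and 21ur-4649 and low for 21ur-1294, 21ur-4976, 21ur-5549 and 21ur-1291.

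In prg-1, which lacks the Argonaute that carries piRNAs, few reads of the members on chromosome IV were counted. The prg-1 libraries held 3167 to 10864 piRNA counts, and a member had a median of 3 counts over 3 libraries at each age. Simulated 4-fold changes were recovered in 17% of cases in the comparison at 48 h, again with piRNAs far less abundant than the members included. Relative to the piRNA counts that remained, 32 members were lower and 2 higher at 48 h (10.1% of all piRNAs were called, 4.88% higher and 5.25% lower), and 60 lower and 2 higher at 72 h (12.1% of all, 5.26% higher and 6.86% lower). All piRNAs tested reach levels far below those of the members, and how much of this difference goes with abundance was not tested. The early list held 2.27% of the counts in prg-1 at 48 h against 15.7% in wild type, and the late list 4.85% against 8.43%. At 72 h the shares were 1.79% against 3.01% and 4.26% against 28.4%. The members' median log2 change was -1.76 and -2.39. It was -1.62 and -2.25 when the 8 members without a count at each age were set at the floor. Over all piRNAs tested, where no floor was set for those without a count, it was -5.21 and -4.15. The order depends on the scaling. With equal library sizes the members' median was -8.61 at 48 h and -8.65 at 72 h, against -6.85 and -5.96 over all. 21ur-4730 gave 1218, 947 and 1688 CPM in prg-1 at 48 h against 6415, 5649.95 and 7669 CPM in wild type, all far below, and its log2 change was -2.27 (SE 0.59, edgeR adjusted p = 0.00662). It had 0.163% of the wild-type raw counts at 48 h.

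At 48 h 9 of the 10 most abundant members were lower in prg-1, all but 21ur-3320, and at 72 h all 10 were. 21ur-5962 had no count in prg-1 at 48 h (0 of 20261 counts) against 435, 451 and 389.5 CPM in wild type, and was at least 2.87-fold lower by the floor of 3 counts. Its call was lost without prg-1 replicate 1 or 3 (edgeR adjusted p = 0.0631 and 0.0815). 21ur-6532 had no count at 72 h (0 of 26502 counts) against 538, 551 and 520.0 CPM, and was at least 4.74-fold lower. The number of members called depended on single libraries of this mutant. It was 17 at 48 h without prg-1 replicate 1 and 14 without replicate 3, and 36 at 72 h without replicate 3. With TMM factors 97 and 98 members were lower and with DESeq2 size factors 14 and 16. Of all 8512 piRNAs tested, 2029 and 1716 were lower with the former and 228 and 182 with the latter. The 2 higher members at each age were those of chromosome II, which held most of the members' counts in prg-1. All 100 members had 10.5% ± 1.2 (SD, n = 3) of the piRNA counts at 48 h and 20.5% ± 0.70 at 72 h, and the 98 on chromosome IV had 1.82% ± 0.22 and 1.26% ± 0.07. 21ur-10492 was higher by 7.05 and 8.19 (SE 0.93 and 0.97, edgeR adjusted p = 2.6e-07 and 1.9e-08) and had 106% of the wild-type raw counts at 48 h, and 325% at 72 h. With equal library sizes its change was 0.09 at 48 h (edgeR adjusted p = 0.896) and 1.70 at 72 h (adjusted p = 0.00947).

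The age change within each mutant used no library of the rule. In mut-16, 1 member was higher at 72 h and 0 lower where 67% of all piRNAs were called (23% higher), and in hrde-1 3 were higher and 0 lower where 72.4% were (29% higher). In both mutants all 100 early piRNAs were lower and all 100 late ones higher. With TMM factors 58 members were higher in mut-16 and 44 in hrde-1. Those factors moved the median of all piRNAs by 0.64 and 0.55. Of all 8512 piRNAs tested, 3099 and 3174 were then higher and 3251 and 3261 lower. 21ur-313, the member at the upper limit of the ratio, gave 503, 437 and 509 CPM at 48 h and 662, 785 and 756.5 CPM at 72 h in mut-16, with no overlap. Its change was 0.60 (SE 0.23, edgeR adjusted p = 0.0152), and the call was lost without replicate 2 at 48 h (0.54, 0.0642) or at 72 h (0.55, 0.0525). In hrde-1 21ur-1332, 21ur-313 and 21ur-5213 were higher, and the count was 1 without 48 h replicate 2. 21ur-1332, which lies in an exon of srt-49, gave 159, 168 and 162 CPM at 48 h and 255, 216 and 309.97 CPM at 72 h there, with no overlap. Its change was 0.67 (SE 0.25, edgeR adjusted p = 0.0143), and the call was lost without 72 h replicate 3 (0.53, 0.0893).

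In the single snpc mutants few members changed with age. In snpc-1.2, 5 were higher and 2 lower at 72 h (11% of all piRNAs were called, 8.98% higher and 2.02% lower), and in snpc-1.3 none was higher and 2 were lower (2.84% of all, 1.6% lower). 21ur-3729, at chrIV:14433171-14433191 (minus) and the member at the lower limit of the ratio, was lower in both. It gave 222, 295 and 151 CPM at 48 h and 77.7, 113 and 50.9 CPM at 72 h in snpc-1.2, and 392, 433 and 332 CPM and 182.5, 220.3 and 175.5 CPM in snpc-1.3. Neither mutant shows overlap between the ages. 21ur-3729 changed by -1.55 in snpc-1.2 (SE 0.36, edgeR adjusted p = 0.000793) and by -1.0 in snpc-1.3 (SE 0.28, adjusted p = 0.031). In snpc-1.3 the second lower member was 21ur-4976 at -0.95. The snpc-1.3 call of 21ur-3729 was lost without any 1 of replicates 1 and 2 at 48 h or the 3 replicates at 72 h, with changes from -1.11 to -0.91 and edgeR adjusted p from 0.0516 to 0.167. The count in snpc-1.3 was 0 or 1 without any 1 library.

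The count in snpc-1.2 was 2 without replicate 1 of either age, 3 without 48 h replicate 3, and 4 without replicate 2 of either age. With TMM factors 1 member was higher and 29 lower in snpc-1.2. With DESeq2 size factors the counts were 0 and 51, and with equal library sizes 0 and 83. Over all 8512 piRNAs tested, the higher and lower calls were 675 and 1259, 641 and 1920, and 354 and 4342. Among the 5 higher in snpc-1.2 was 21ur-10492, at 2.37 (SE 0.75, edgeR adjusted p = 0.0319), a call lost without any 1 of the 3 libraries at 48 h or replicates 1 and 2 at 72 h (2.17 to 2.66, adjusted p from 0.0505 to 0.141). In the double mutant no member was called with age (0 by edgeR, 10 at an unadjusted p under 0.05, 0 by DESeq2 and 2 by limma, where 0.822% of all piRNAs were called), and in prg-1 none either (0 by edgeR, 5 at an unadjusted p under 0.05, 0 by DESeq2 and 0 by limma, where 0.0117% were called). At the depth of these 2 mutants a change with age may be missed, and none being called does not show that the ages were alike.

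The members from 4 to 7 Mb and from 13 to 18 Mb of chromosome IV could be set side by side. In the double mutant at 48 h, 4 of the 12 members from 4 to 7 Mb were higher and 1 lower, with a median log2 change of 0.11, and of the 86 from 13 to 18 Mb 18 rose and 30 fell, the median being -0.71. In snpc-1.2 at 72 h, 3 of the 12 were higher and none lower, while 8 of the 86 were higher and 21 lower. In prg-1 at 72 h, 7 of the 12 and 53 of the 86 were lower. These are counts of members only, and the same was not counted over all piRNAs of each region. The difference between the regions was not tested.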

How the data were processed

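Small RNA-seq of whole C. elegans was analysed from 2 deposited tables. The first holds the authors' raw counts per piRNA for 17114 piRNAs. Per the submitters' processing notes, Trimmomatic 0.39, Bowtie 1.1.1, HTSeq and edgeR were used with WBcel235. The second holds log2 CPM values for 13211 piRNAs that the authors normalized and batch-corrected, per the file headers, and it gave positions and sequences. How reads at several loci were counted, and the model of the correction, are not given in the sources used here. Of the 66 samples, 54 have a count column. The other 12, all set C mutants, were not analysed here, and 12 columns that match no sample were not used. Per the file headers, replicate 3 of set B wild type at 72 h was sequenced again.

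The members and comparison lists were chosen with earlier results of these data known. Counts of 54 libraries in 18 groups were fitted with edgeR 4.0.16 (R 4.3.3, glmQLFit and glmQLFTest, robust). Library sizes were the piRNA totals with no further factor, so every value is relative to the other piRNAs. filterByExpr (minimum count 10, minimum total 15) left 8512 piRNAs, and all 100 members passed. Calls are at a Benjamini-Hochberg adjusted p below 0.05 in 21 comparisons. Errors printed as SE are the fitted change divided by the root of the quasi-likelihood F. piRNA totals ran from 597470 to 2276260 counts per library in most groups. They were 132848 to 275171 in snpc-1.2 at 72 h, 9912 to 829820 in set C, 16101 to 34162 in the double mutant and 3167 to 10864 in prg-1. Alternatives were DESeq2 1.42.0, limma 3.58.1 on the deposited log2 values, 3 other scalings, no filter, a replicate block, the compared groups alone, and each replicate left out. The test was tried on simulated data with 200 piRNAs changed 4-fold. They were drawn from piRNAs at levels that reach far below those of the members. Every simulated library had the composition of set B wild type at 48 h and a fixed spread.

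Named members were the 10 most abundant, those at the limits of the rule, and the most changed per direction with no overlap and at least 50 CPM on average, 2 for comparisons of snpc mutants and 1 for the others. For members named by their change, the lack of overlap was thus part of the choice and is no separate evidence. No library pair within a group agreed within sampling noise (lowest chi-square 1.48 per degree of freedom). The median Spearman correlation within a group was 0.927 and the lowest 0.252. In set C the same replicate numbers deviated together between ages, with correlations of 0.28, 0.21 and 0.13, each over 0.1, the rule for pairing. In the other 20 comparisons the numbers did not meet that rule. The set C calls still come from the fit by group means, with pairing only where the replicate block is named.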

Additional observations from a re-analysis of the deposited data

Results flagged for a closer look

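Among 62 groups of 6 wild-type values (a named member, or the members' share, at 1 age over sets A and B), 7 held a library far from the others by Dixon's criterion, where chance gives about 1 in 20. At 48 h, set A replicate 2 was the extreme library in 4 of the 7. It was the highest for 21ur-4684 (595.5 CPM, the others 333 to 418), for 21ur-4994 (237 CPM, the others 170.3 to 194) and for 21ur-3729 (424 CPM, the others 175 to 265). It was the lowest for 21ur-1291 (1038 CPM, the others 1432 to 1588). Set B replicate 2 at 48 h was the highest for 21ur-6031, at 2197 CPM against 1293 to 1500.2 CPM. At 72 h, set A replicate 1 was the lowest for 21ur-4362 (142 CPM, the others 206 to 219), and set B replicate 3 was the highest for 21ur-2073 (699 CPM, the others 393 to 472).

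Among the 30 named members, looked at in each of the 6 mutant genotypes, a pair moved in opposite directions with age against wild type in every library. The same was not counted for the other members or over all piRNAs tested. 21ur-1294 was higher in all 3 snpc-1.2 libraries than in all 3 of wild type at 48 h and lower in all 3 at 72 h, with log2 changes of 0.20 and -0.41. 21ur-4976 did the same in snpc-1.3, with 0.49 and -0.54. None of these 4 changes was called, and the difference between the ages was not tested.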

How the results depend on the processing

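Counts of called members moved with the scaling and with other choices. The counts here and below are of members only, and those over all piRNAs tested moved with the scaling as well. In snpc-1.2 at 48 h, for example, 264 of all piRNAs tested were higher and 2223 lower with piRNA totals. With TMM factors these were 5 and 3703. In the order snpc-1.2, snpc-1.3, prg-1, mut-16 and hrde-1 against wild type at 48 h, TMM factors gave 86, 55, 99, 2 and 1 calls. They gave 99 for snpc-1.2 and 100 for prg-1 at 72 h, 94 and 98 between the single snpc mutants, and, with age, 2 in set C, 30 in snpc-1.2, 0 in snpc-1.3, 58 in mut-16 and 44 in hrde-1. DESeq2 size factors in edgeR gave 1, 10, 16, 2 and 1 in the same order at 48 h, 18 for prg-1 at 72 h, and with age 10 in set C, 51 in snpc-1.2, 0 in snpc-1.3 and 0 in hrde-1. Their split was 23 higher and 5 lower between the single mutants at 48 h and 4 and 35 at 72 h, 11 and 51, and 15 and 52, in the double mutant, and 3 and 27 in snpc-1.2 at 72 h. Equal library sizes gave 0, 1, 99 and 2 (snpc-1.2, snpc-1.3, prg-1, mut-16) and 98 in the double mutant at 48 h, and 79 in snpc-1.2, 99 in prg-1 and 1 in hrde-1 at 72 h. They gave 2 and 84 between the single mutants, and with age 83 in snpc-1.2 and 0 in set C, snpc-1.3, mut-16 and hrde-1. DESeq2 gave 2 in snpc-1.2, 11 in prg-1 and 2 in mut-16 at 48 h, 17 in prg-1 at 72 h, and with age 15 in set C, 53 in snpc-1.2, 1 in snpc-1.3, 2 in mut-16 and 1 in hrde-1. limma on the deposited log2 values gave 0 in snpc-1.2, 2 in snpc-1.3, 100 in prg-1, 2 in mut-16, 1 in hrde-1 and 14 between the single mutants at 48 h. At 72 h it gave 18 in snpc-1.2, 100 in prg-1 and 1 in hrde-1, and with age 7 in set C, 2 in the double mutant and 0 in snpc-1.3, mut-16 and hrde-1. The compared groups alone gave 50 between the single mutants at 48 h, 3 in snpc-1.3 at 72 h, and with age 0 in set C, 14 in snpc-1.2, 18 in snpc-1.3, 2 in the double mutant, 2 in prg-1, 12 in mut-16 and 12 in hrde-1. Without the filter there was 1 in snpc-1.2 at 48 h, and with age 2 in set C, 3 in snpc-1.2, 0 in mut-16 and 1 in hrde-1. The cause of these moves was not tested.

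With the replicate block there were 34 calls in snpc-1.3, 2 in mut-16, 4 in hrde-1 and 47 between the single mutants at 48 h, 1 in snpc-1.3 and 6 in mut-16 at 72 h, and with age 13 in snpc-1.2, 4 in snpc-1.3, 4 in mut-16 and 7 in hrde-1. Outside set C, 17 of 180 same-number pairs had a correlation over 0.1, against 5 of 360 pairs of unlike numbers. The block changed the call of no named member (43 of 43 the same).

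Leaving out 1 library gave 0 to 4 calls in snpc-1.2, 13 to 23 in snpc-1.3, 40 to 52 in the double mutant, 14 to 35 in prg-1, 0 to 2 in mut-16, 0 to 2 in hrde-1 and 25 to 34 between the single mutants at 48 h. At 72 h it gave 25 to 34 in snpc-1.2, 0 to 1 in snpc-1.3, 55 to 62 in the double mutant, 36 to 61 in prg-1, 0 to 3 in mut-16, 2 in hrde-1 and 33 to 39 between the single mutants. With age it gave 1 to 10 in set C, 2 to 7 in snpc-1.2, 0 to 1 in snpc-1.3, 0 to 1 in mut-16, 1 to 3 in hrde-1 and 0 in prg-1 and the double mutant. Of 258 values of named members with a library left out, 220 kept the call, 38 lost it and none turned.

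Signs turned with TMM factors for 21ur-4985 (-0.36) and 21ur-102 (-0.54) between the single mutants at 48 h and for novel_21ur-0227 in snpc-1.2 adults (-0.086). With equal library sizes they turned for novel_21ur-0227 in the double mutant (-0.33 at 48 h, -0.80 at 72 h) and in snpc-1.2 adults (-0.12). Of the 43 named values, 34 kept their call with TMM, 20 with equal sizes, 37 with DESeq2 size factors, 40 with DESeq2, 40 without the filter, 41 with the groups alone and 33 with limma. Depth limits prg-1 and the double mutant most, where members rest on a median of 3 to 30 counts.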
